A study of Mus musculus with 20 samples.

Results

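The response of the liver to acute endoplasmic reticulum stress (ERS) was measured in mice that lack NFIL3 (NFIL3 KO). Livers of 5 NFIL3 KO mice given tunicamycin were compared with livers of 5 NFIL3 KO mice given vehicle, which makes 10 of the 20 arrays of the study, each from a separate mouse. The other 10 arrays come from wild-type (WT) littermates under the same treatments. All mice were adult males on a C57BL/6J background. NFIL3 KO mice carried the germline genotype Nfil3-/-, so that the loss was not limited to hepatocytes. Tunicamycin was injected into the peritoneum at 1 µg/g, the vehicle was 150 mM dextrose, and the liver was taken 8 h later. All 22180 genes that the array measures with an annotated symbol were tested, and none was chosen by its response. RNA came from whole liver, so fewer cells of a type and less RNA per cell cannot be told apart in any value below. Values are log2 signal intensities, a difference is the tunicamycin mean minus the vehicle mean with its standard error (SE), and a gene is said to have risen or fallen where limma's p-value, adjusted by Benjamini-Hochberg over all genes, was under 0.05. In lists of values the arrays stand in the order of replicates 1 to 5 of a group, and these numbers do not tie a tunicamycin mouse to a vehicle mouse.

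Tunicamycin blocks DPAGT1, the enzyme that starts the sugar chain for N-linked glycosylation, so that glycoproteins fail to fold in the endoplasmic reticulum (ER). Stress in the ER is sensed by PERK, IRE1 and ATF6, which act through the translation of ATF4, the splicing of XBP1 mRNA and the release of the ATF6 transcription factor; together they make up the unfolded protein response (UPR), which raises chaperones, degradation of misfolded proteins and amino acid supply. NFIL3 is a bZIP repressor that binds the same DNA letters as the activators DBP, HLF and TEF (the PAR-bZIP family), which drive daily rhythms of metabolic and detoxifying genes in the liver.

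The genotype was checked on Nfil3 itself. Its signal was 5.70, 5.53, 5.35, 5.30 and 5.18 with vehicle and 5.99, 4.95, 5.07, 4.83 and 5.40 with tunicamycin, a difference of -0.17 ± 0.23 (adjusted p = 0.691). Vehicle and tunicamycin arrays overlapped, and replicate 1 was the highest of either group. In WT livers Nfil3 went from a mean of 6.44 to 7.99. It is not known here if its probes fall inside the deletion. Alb, the serum albumin gene of hepatocytes, was between 13.48 and 13.59 in all 10 arrays (difference -0.04 ± 0.06, adjusted p = 0.755). That is near the highest value on any array, 13.67, where a change may not show. Of 11 measured hepatocyte markers, 1 rose and 4 fell. Array medians lay between 4.65 and 4.77 over the 20 arrays. A pair of arrays stood apart. On the main axis of variation of the 10 arrays, with 58.69% of the variance, tunicamycin replicate 3 scored 23.24 against 35.71 to 42.8 for the rest of its group, and on the next axis, with 10% of the variance, it lay at -36.68 against -2.99 to 15.91. Its mean correlation with its own group was 0.9838, whereas no other of the 10 arrays was under 0.988. Vehicle replicate 5 stood apart for inflammatory and stress genes. Saa3, an acute-phase gene, was at 7.52, 6.76, 7.65, 6.76 and 12.45 in the vehicle arrays, and the metallothionein gene Mt2 at 9.38, 8.67, 9.26, 8.34 and 11.42.

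Tunicamycin changed the signal of 6029 of 22180 genes (27.2%). Of these, 2984 rose (13.5%) and 3045 fell (13.7%). The median difference was 0.61 among genes that rose, -0.55 among those that fell and -0.03 over all genes. Rises reached further than falls. By at least 2-fold, 681 genes rose and 523 fell, and by at least 8-fold 31 rose and 7 fell. For 2198 of the risen and 2245 of the fallen genes, all 5 tunicamycin arrays lay on one side of all 5 vehicle arrays, a separation seen in 20.9% of all genes. In WT livers 6077 genes (27.4%) were called. Genes that fell started from a higher signal, with a median vehicle level of 7.34 against 6.77 for genes that rose. Calls were more frequent at higher signal. Of 4832 genes with a mean of 4 to 5 over all 20 arrays, 153 rose and 225 fell. At 8 to 10 it was 723 and 710 of 2138, and at 10 to 14 it was 121 and 215 of 503. The shares over all genes, set beside gene lists below, are not matched for signal level. At the level of probesets, 8361 of 41345 (20.2%) were called, 4557 up (11%) and 3804 down (9.2%).

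**Figure D1:**
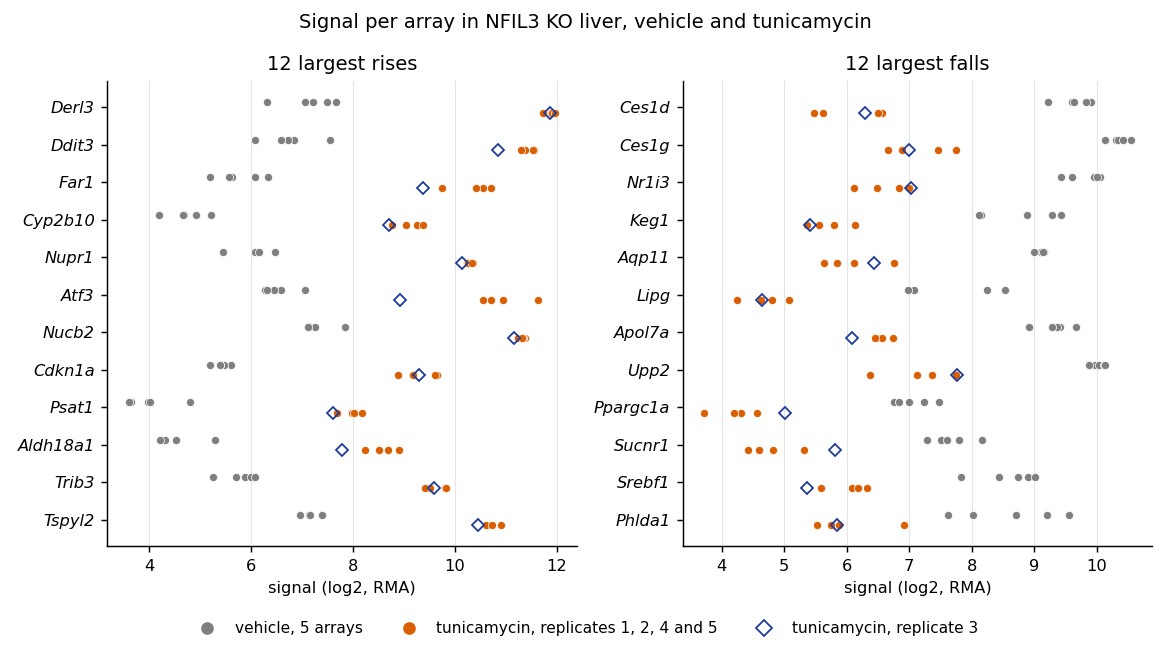
Log2 signal (horizontal axis) of the 12 genes with the largest rises and the 12 with the largest falls in NFIL3 KO liver, with 1 point for each array, vehicle and tunicamycin in different colours and tunicamycin replicate 3 as an open diamond. In each gene the 5 tunicamycin arrays lie apart from the 5 vehicle arrays, and replicate 3 stands farthest below the rest of its group in Atf3 (8.92).

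The 12 genes with the largest rises had varied roles. Derl3, a derlin that helps to draw misfolded proteins out of the ER, stood at 7.66, 7.22, 7.49, 6.31 and 7.05 with vehicle and 11.89, 11.73, 11.86, 11.91 and 11.97 with tunicamycin, a 26.5-fold rise (4.73 ± 0.22, adjusted p = 2.77e-13). Its tunicamycin arrays lay within 0.3 of each other, while vehicle replicate 4 was the lowest of its group. Ddit3, which encodes the UPR transcription factor CHOP, was at 7.54, 6.84, 6.73, 6.59 and 6.08 with vehicle and 11.38, 11.54, 10.84, 11.53 and 11.29 with tunicamycin (4.56 ± 0.18, adjusted p = 3.15e-14). Nupr1, a small stress-induced chromatin protein, stood at 6.46, 6.11, 6.08, 5.44 and 6.16 with vehicle and 10.24, 10.36, 10.14, 10.26 and 10.33 with tunicamycin, a difference of 4.22 ± 0.16, adjusted p = 1.59e-14. The groups of Ddit3 and Nupr1 were over 3 apart at their nearest arrays. Atf3, a stress-induced bZIP factor of the ATF4 branch, was at 7.05, 6.58, 6.44, 6.28 and 6.32 with vehicle and 10.70, 10.54, 8.92, 11.63 and 10.95 with tunicamycin (4.02 ± 0.32, adjusted p = 1.51e-09). Replicate 3 was the lowest tunicamycin array for Atf3, by over 1.5, and without it the rise was 4.42. Trib3, a pseudokinase induced by ATF4 and CHOP, was at 5.89, 5.99, 5.71, 5.25 and 6.07 with vehicle and 9.80, 9.50, 9.58, 9.82 and 9.41 with tunicamycin (3.84 ± 0.17, adjusted p = 1.46e-13), with replicate 3 inside the range of its group.

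Psat1, an enzyme of serine synthesis, was at 3.97, 4.02, 3.65, 3.60 and 4.81 with vehicle and 7.97, 7.69, 7.60, 8.01 and 8.18 with tunicamycin (3.88 ± 0.21, adjusted p = 2.55e-12), and Aldh18a1, which starts proline synthesis from glutamate, at 4.53, 4.32, 4.22, 4.53 and 5.30 with vehicle and 8.51, 8.24, 7.78, 8.91 and 8.68 with tunicamycin (3.84 ± 0.20, adjusted p = 1.54e-12). Both were highest in replicate 5 among the vehicle arrays, and the groups stayed apart by more than 2. Far1 makes the fatty alcohols of ether lipids and was at 6.34, 5.63, 6.07, 5.20 and 5.56 with vehicle and 10.55, 9.74, 9.37, 10.41 and 10.71 with tunicamycin (4.40 ± 0.25, adjusted p = 7.43e-12). Cyp2b10, a cytochrome P450 known as a target of the receptor CAR, stood at 5.22, 4.19, 4.68, 4.66 and 4.91 with vehicle and 9.04, 9.25, 8.71, 8.77 and 9.37 with tunicamycin (4.30 ± 0.29, adjusted p = 1.11e-10). No array of either group came near the other for Far1 or Cyp2b10. The other large rises were Nucb2 (3.99 ± 0.17, adjusted p = 6.44e-14), which encodes a calcium-binding protein of the secretory pathway, Cdkn1a (3.91 ± 0.20, adjusted p = 1.75e-12), which encodes the cell cycle inhibitor p21, and Tspyl2 (3.46 ± 0.11, adjusted p = 9.88e-16), of the nucleosome assembly protein family.

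The 12 genes with the largest falls were likewise of several kinds. Ces1d, a carboxylesterase that also hydrolyses triglyceride in hepatocytes, was at 9.90, 9.82, 9.61, 9.63 and 9.22 with vehicle and 6.57, 6.50, 6.29, 5.48 and 5.62 with tunicamycin, 11.7-fold lower (-3.54 ± 0.23, adjusted p = 6.48e-11). Ces1g, a neighbouring carboxylesterase, stood at 10.55, 10.31, 10.34, 10.42 and 10.14 with vehicle and 7.74, 7.46, 7.0, 6.89 and 6.66 with tunicamycin (-3.20 ± 0.27, adjusted p = 3.72e-09). Probes of this gene cluster can be shared between its members, so that the values of single members are uncertain. Nr1i3, which encodes CAR, was at 10.05, 9.96, 10, 9.60 and 9.43 with vehicle and 6.83, 6.49, 7.02, 6.99 and 6.12 with tunicamycin, 8.68-fold lower (-3.12 ± 0.19, adjusted p = 1.52e-11), although its known target Cyp2b10 rose. Ppargc1a, the coactivator PGC-1α of mitochondrial and gluconeogenic genes, was at 7.0, 6.75, 6.84, 7.23 and 7.47 with vehicle and 4.56, 4.31, 5.01, 3.72 and 4.19 with tunicamycin (-2.70 ± 0.20, adjusted p = 5.87e-10), and Srebf1, the SREBP1 gene of lipid synthesis, at 8.43, 8.74, 8.90, 9.01 and 7.82 with vehicle and 6.09, 6.18, 5.37, 6.33 and 5.59 with tunicamycin (-2.67 ± 0.24, adjusted p = 8.09e-09). The arrays of all 5 genes were fully apart between treatments, with replicate 3 the highest tunicamycin array for Nr1i3 and Ppargc1a and the lowest for Srebf1. The others among the 12 were Keg1 (-3.12 ± 0.28), a glycine acyltransferase relative, the water channel gene Aqp11 (-2.94 ± 0.17), the endothelial lipase gene Lipg (-2.90 ± 0.28), the apolipoprotein L family gene Apol7a (-2.86 ± 0.14), the uridine phosphorylase gene Upp2 (-2.75 ± 0.21), the succinate receptor gene Sucnr1 (-2.68 ± 0.28) and Phlda1 (-2.64 ± 0.33). Their adjusted p-values ran from 5.92e-13 for Apol7a to 1.15e-06 for Phlda1. The pseudogene Serpina4-ps1, which the naming rule left out of the largest falls, was at -3.10 ± 0.41.

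**Figure D2:**
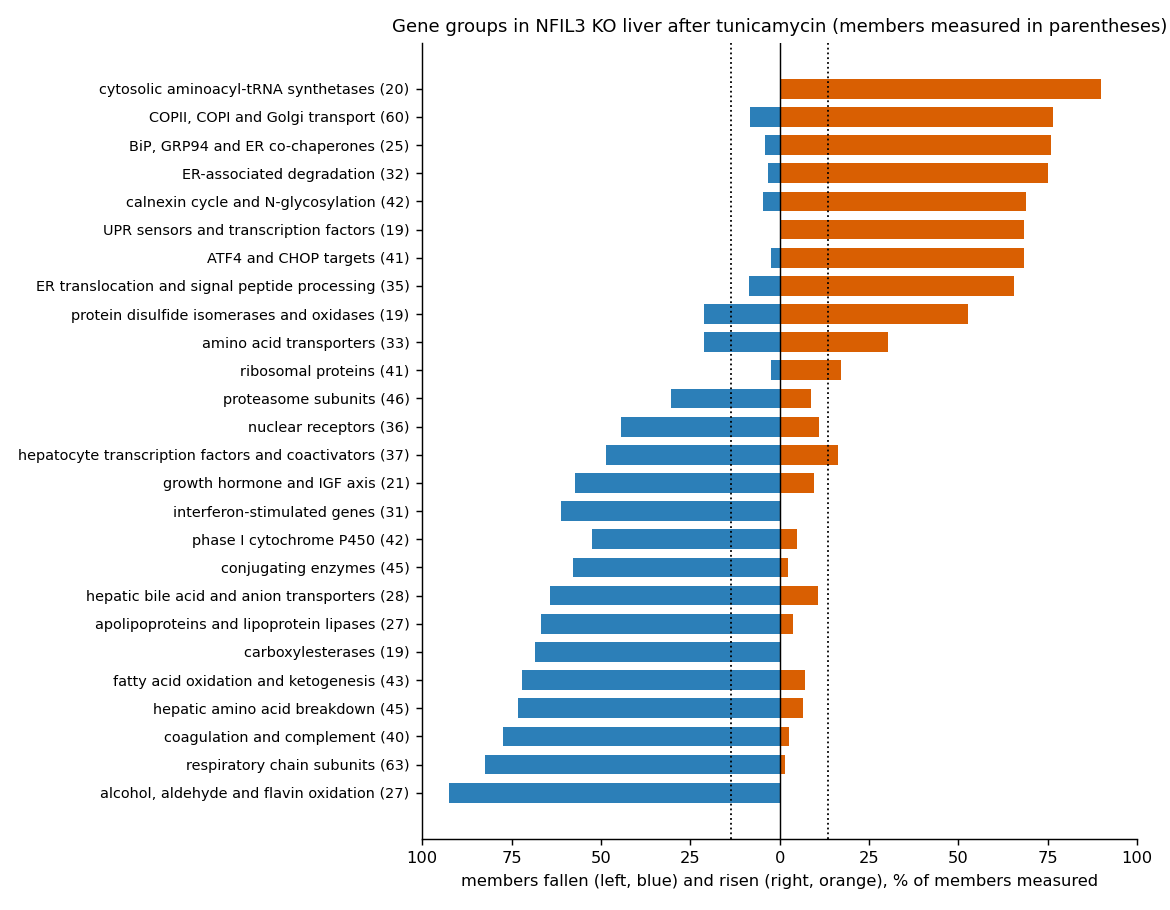
Share of the measured members of 26 gene lists that rose (bars to the right, percent) or fell (bars to the left, percent) with tunicamycin in NFIL3 KO liver. Dotted lines mark the shares over all genes, 13.5% risen and 13.7% fallen. These lines are not matched for signal level, and genes of higher signal were called more often. The lists of ER protein handling, ATF4 and CHOP targets and cytosolic aminoacyl-tRNA synthetases extend to the right. Those of liver metabolism and secreted proteins extend to the left.

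Among 19 measured genes of UPR sensors and transcription factors, 13 rose and 0 fell (median 1.08). The mean of the list was 7.27 to 7.51 in the vehicle arrays and 8.42 to 8.95 in the tunicamycin arrays. Atf6 was at 9.32, 9.56, 9.38, 9.33 and 9.50 with vehicle and 11.07, 11.12, 11, 11.21 and 11.13 with tunicamycin (1.69 ± 0.09, adjusted p = 1.75e-12). Atf4 was at 8.25, 8.16, 7.87, 7.89 and 8.23 with vehicle and 9.85, 9.67, 9.47, 10.03 and 9.91 with tunicamycin (1.71 ± 0.12, adjusted p = 1.22e-10). The treatments were fully apart for both, and replicate 3 was the lowest tunicamycin array of each. Eif2ak3, which encodes PERK, rose by 1.42 ± 0.12 and Ern1, which encodes IRE1, by 0.74 ± 0.12 (adjusted p = 4.86e-05); this pair was chosen after its values were seen. Xbp1 was at 10.24, 10.02, 10.16, 10.11 and 10.11 with vehicle and 10.18, 10.26, 9.63, 10.23 and 9.88 with tunicamycin (-0.09 ± 0.10, adjusted p = 0.604), with overlapping arrays. Splicing of Xbp1, by which IRE1 activates it, is not measured by a summed probeset.

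Chaperones of the ER rose. Of 25 measured genes of BiP, GRP94 and their co-chaperones, 19 rose and 1 fell (median 0.84), with list means of 8.21 to 8.41 and 9.40 to 9.51. Hspa5, which encodes BiP, the main ER chaperone, was at 9.76, 9.89, 9.78, 9.47 and 9.82 with vehicle and 11.81, 11.83, 12, 11.95 and 11.89 with tunicamycin, a 4.44-fold rise (2.15 ± 0.09, adjusted p = 1.46e-13). Hsp90b1, which encodes GRP94, was at 12.12, 12.07, 12.08, 12 and 12.26 with vehicle and 13.30, 13.34, 13.32, 13.29 and 13.39 with tunicamycin (1.22 ± 0.07, adjusted p = 1.04e-11). Replicate 3 was the highest tunicamycin array for Hspa5 and within the range for Hsp90b1. The chaperone partners Creld2 (3.29 ± 0.14), Sdf2l1 (3.14 ± 0.20), Dnajb11 (2.38 ± 0.11) and Manf (2.27 ± 0.11) rose most in the list. Disulfide isomerases and oxidases, which form and reshuffle disulfide bonds, had 10 rises and 4 falls among 19 genes (median 0.43), led by the oxidases Ero1b (1.99 ± 0.09) and Ero1a (1.83 ± 0.13), then Pdia6 (1.41 ± 0.09) and Pdia3 (1.16 ± 0.09).

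The step that tunicamycin blocks was higher in mRNA. Dpagt1, named after its values were seen, was at 8.02, 8.45, 8.43, 8.18 and 8.28 with vehicle and 9.21, 9.24, 9.12, 9.54 and 9.47 with tunicamycin (1.05 ± 0.11, adjusted p = 6.88e-08), with the groups apart and replicate 3 the lowest tunicamycin array. Of 42 genes of the calnexin cycle and N-glycosylation, 29 rose and 2 fell (median 0.63). They included the mannosyltransferase gene Alg12 (1.62 ± 0.12), the dolichol synthesis gene Dhdds (1.33 ± 0.11), the oligosaccharyltransferase gene Stt3b (1.12 ± 0.09) and the glucosidase gene Mogs (1.12 ± 0.11). The hexosamine pathway, which makes the UDP-GlcNAc that DPAGT1 uses, had 7 rises and 4 falls among 14 genes. Its rate-limiting Gfpt1 was at 7.86, 7.79, 7.82, 7.65 and 8.09 with vehicle and 10.62, 10.69, 10.26, 10.65 and 10.65 with tunicamycin (2.73 ± 0.10, adjusted p = 7.55e-15). Replicate 3 was the lowest tunicamycin array for Gfpt1 and still over 2 above every vehicle array. Gnpnat1 (1.34 ± 0.13) and Uap1 (0.91 ± 0.10) rose as well, as did Nans (1.66 ± 0.14), a sialic acid synthesis gene of the same list.

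Genes of ER-associated degradation had 24 rises and 1 fall among 32 (median 0.57, or 0.69 without replicate 3). Syvn1, the ubiquitin ligase HRD1 of this pathway, was at 8.03, 8.13, 8.32, 7.56 and 7.93 with vehicle and 11.05, 11.09, 10.61, 11.29 and 11.11 with tunicamycin (3.03 ± 0.14, adjusted p = 1.70e-13). Replicate 3 was its lowest tunicamycin array. Sel1l (2.63 ± 0.10) and Selenos (1.85 ± 0.20) belong to the same membrane complex, and Herpud1, a scaffold of it, was at 11.26, 11.65, 10.91, 10.98 and 10.94 with vehicle and 12.57, 12.56, 12.52, 12.78 and 12.50 with tunicamycin (1.44 ± 0.12, adjusted p = 2.28e-09). Transport into and out of the ER followed the same direction, with 23 rises and 3 falls among 35 translocation and signal peptide genes, such as Sec11a (1.66 ± 0.09) and Srprb (1.51 ± 0.11), while Tram2 fell (-1.70 ± 0.19). Among 60 genes of COPII, COPI and Golgi transport, 46 rose and 5 fell (median 0.58), with the KDEL receptor gene Kdelr3 (2.14 ± 0.16), Mcfd2 (1.70 ± 0.13), Stx5a (1.67 ± 0.11) and Arfgap3 (1.61 ± 0.16) in front. The ER calcium pump gene Atp2a2 (1.93 ± 0.10) and Wfs1 (2.34 ± 0.14), which encodes a stress-induced ER membrane protein, rose within a calcium list of 9 rises and 3 falls among 24.

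Targets of ATF4 and CHOP had 28 rises and 1 fall among 41 genes (median 0.98). Cytosolic aminoacyl-tRNA synthetases, which load amino acids on tRNA and are known ATF4 targets, had 18 rises and 0 falls among 20 (median 0.97), with list means of 7.94 to 8.17 and 8.70 to 9.10. Wars (2.02 ± 0.12), Iars (1.78 ± 0.10), Lars (1.55 ± 0.12) and Gars (1.44 ± 0.10) led them. Their mitochondrial relatives were mixed, with 7 rises, such as Ears2 (0.96 ± 0.14), and 2 falls, such as Lars2 (-0.65 ± 0.10), among 16. Asns, asparagine synthetase, was at 5.01, 4.98, 5.82, 5.13 and 7.11 with vehicle and 7.89, 7.63, 7.20, 8.19 and 7.84 with tunicamycin (2.14 ± 0.28, adjusted p = 2.46e-06). Vehicle replicate 5 was the highest vehicle array of Asns, close to the lowest tunicamycin array, and without it the rise was 2.51, adjusted p = 9.61e-10. Mthfd2, of mitochondrial one-carbon metabolism, was at 4.62, 4.65, 4.54, 4.68 and 6.32 with vehicle and 7.09, 7.01, 6.21, 7.06 and 7.02 with tunicamycin (1.91 ± 0.25, adjusted p = 2.25e-06, or 2.25, adjusted p = 5.35e-10 without vehicle replicate 5). Vehicle replicate 5 overlapped tunicamycin replicate 3 there.

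In the whole list of serine, one-carbon and amino acid synthesis, 8 genes rose and 5 fell among 22. Amino acid transporters were as divided, with 10 rises and 7 falls among 33. The arginine transporter gene Slc7a1 (3.17 ± 0.22), the shared heavy chain Slc3a2 (1.80 ± 0.10) and the cystine transporter gene Slc7a11 (1.26 ± 0.19) rose, and the lysosomal Slc36a1 fell (-1.24 ± 0.13). Kinases and phosphatase subunits of eIF2α, with brakes on mTOR, had 12 rises and 8 falls among 28 (median 0.09). Among the rises were Ddit4 (2.43 ± 0.21), Sesn2 (1.68 ± 0.19) and Ppp1r15a (1.51 ± 0.14), which encodes GADD34. Chac1, a glutathione-degrading enzyme downstream of ATF4, rose by 2.11 ± 0.25. Ifrd1, of the LIVER-ID list below, rose by 2.75 ± 0.11. The p53-type growth arrest list had 8 rises and 4 falls among 24, with Btg2 (1.59 ± 0.20) and Ccng1 (1.23 ± 0.11) beside Cdkn1a. The BCL2 and death receptor list had 3 rises, with the TWEAK receptor gene Tnfrsf12a at 2.36 ± 0.19, and 6 falls among 24.

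Promoters were searched for the letters of 4 known elements in the 250 bases before and 50 bases after the start of each gene (RefSeq, GRCm38.p6), on both strands, for the 16990 measured genes with a promoter in the table. The ER stress element (ERSE), bound by ATF6 with NF-Y, was searched as CCAAT, any 9 bases and CCACG. A gene was counted where any of its promoters held the letters. The ERSE was found in 18 of 2427 risen genes (0.742%), 1 of 2367 fallen genes (0.0422%) and 10 of 12196 genes that were not called (0.082%). Over all 16990 genes it was in 29 (0.171%). Among genes that rose by at least 1 on the log2 scale, 15 of 568 (2.64%) held it. By at least 2 it was 4 of 88 risen genes (4.55%) and 0 of 51 fallen genes. The 18 were Derl3, Creld2, Syvn1, Hspa5, Ero1b, Xlr3a, Zfp57, Dnajc3, Xlr3c, Alg12, Pdia6, Xlr3b, Hnrnpa3, Acnat2, Hsp90b1, Calr, Pan2 and Canx. Creld2 and Alg12 lie head to head and share the same bases, and the Xlr3 genes are similar copies, so these are not independent. The 1 fallen gene was Acacb (-1.90 ± 0.24, adjusted p = 1.34e-06), an acetyl-CoA carboxylase of fat metabolism. Windows of 60 bases around the element are shown for the genes with the largest rises and for Acacb, 5′ to 3′ on the gene's own strand, with the element in capitals also where it is read on the other strand.
Derl3 (chr10:75893222-75893281, plus strand): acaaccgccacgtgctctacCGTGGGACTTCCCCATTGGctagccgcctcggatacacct
Creld2 (chr15:88819500-88819559, plus strand): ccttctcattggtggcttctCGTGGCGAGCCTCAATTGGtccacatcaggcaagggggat
Syvn1 (chr19:6046512-6046571, plus strand): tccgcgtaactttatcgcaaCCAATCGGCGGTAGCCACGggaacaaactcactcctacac
Ero1b (chr13:12565662-12565721, plus strand): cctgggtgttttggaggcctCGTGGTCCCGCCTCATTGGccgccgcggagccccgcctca
Acacb (chr5:114165411-114165470, plus strand): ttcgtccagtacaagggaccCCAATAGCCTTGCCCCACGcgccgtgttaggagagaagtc
The 250 bases before the start of Hspa5 are shown whole, since this gene is the standard marker of the UPR, with the UPR element TGACGTG (the upstream capitals) and the ERSE in capitals.
Hspa5 (chr2:34771840-34772089, plus strand): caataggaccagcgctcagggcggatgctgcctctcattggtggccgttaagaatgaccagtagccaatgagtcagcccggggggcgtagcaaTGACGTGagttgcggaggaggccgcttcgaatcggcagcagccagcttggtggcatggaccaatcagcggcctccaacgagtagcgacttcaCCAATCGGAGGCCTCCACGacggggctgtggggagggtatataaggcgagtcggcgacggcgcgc
A match is a description of letters and not of binding.

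The UPR element, searched as TGACGTG on either strand, was in 5.52% of risen genes, 1.86% of fallen genes and 2.55% of all measured genes with a promoter. Among genes that changed by at least 2 on the log2 scale, 5 of 88 risen (5.68%) and 2 of 51 fallen (3.92%) held it. The amino acid response core is bound by ATF4 with C/EBP factors and was searched as TGATGNAA (TTNCATCA on the other strand). It did not follow the calls, at 3.26% of risen, 2.75% of fallen and 3.92% of all. Among genes that changed by at least 2 it was in 7 of 88 risen (7.95%) and 2 of 51 fallen (3.92%). The palindrome-like site of NFIL3 and the PAR-bZIP factors, searched as TTATGTAA (TTACATAA on the other strand), was in 0.494% of risen, 1.23% of fallen and 1.01% of all. It was in 0 of 88 genes that rose by at least 2 and in 6 of 51 (11.8%) that fell by at least 2. The 6 were Ces1g, Ces1b, Ces1e, Apol7a, Slc16a12 and Gm19522. The Ces1 genes are paralogues of one cluster, so these are not independent. The windows below show the amino acid response core of Nupr1, Atf3, Asns, Chac1 and Gpam and the PAR-bZIP letters of Ces1g, Apol7a and Per3, with the element in capitals. For each element they are the genes with the largest changes among those named by the rule whose letters lie before the start, without Ces1b. The core of Trib3 lies after the start and is not shown.
Nupr1 (chr7:126625547-126625606, minus strand): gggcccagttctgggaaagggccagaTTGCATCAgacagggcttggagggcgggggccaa
Atf3 (chr1:191183410-191183469, minus strand): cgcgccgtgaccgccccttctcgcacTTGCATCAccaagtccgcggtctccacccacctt
Asns (chr6:7693210-7693269, minus strand): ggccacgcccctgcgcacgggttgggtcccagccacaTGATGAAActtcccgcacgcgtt
Chac1 (chr2:119351023-119351082, plus strand): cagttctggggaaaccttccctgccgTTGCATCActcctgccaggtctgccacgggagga
Gpam (chr19:55127239-55127298, minus strand): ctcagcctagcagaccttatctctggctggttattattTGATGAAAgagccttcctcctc
Ces1g (chr8:93337400-93337459, minus strand): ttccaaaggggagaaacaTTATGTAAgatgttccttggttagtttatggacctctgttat
Apol7a (chr15:77399111-77399170, minus strand): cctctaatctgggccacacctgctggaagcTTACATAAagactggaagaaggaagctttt
Per3 (chr4:151044790-151044849, minus strand): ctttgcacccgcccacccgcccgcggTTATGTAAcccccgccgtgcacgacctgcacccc
Nupr1, Atf3 and Chac1 carry the core as TTGCATCA on the gene's strand and rose by 4.22, 4.02 and 2.11. Asns and Gpam carry it in the other orientation, as TGATGAAA, and Asns rose (2.14 ± 0.28) whereas Gpam fell (-1.91 ± 0.15).

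The liver identity genes that the study defined (LIVER-ID) fell more often than they rose. Of 492 measured LIVER-ID genes, 58 rose and 258 fell (median -0.34), against a median of -0.03 over all genes. Genes marked by broad H3K4me3 ubiquitously and not in liver alone (UBQ genes), had 96 rises and 144 falls among 517 (median -0.10). The per-array mean of the LIVER-ID genes was 8.72 to 8.81 with vehicle and 8.25 to 8.43 with tunicamycin, and did not overlap. The Core Enrichment genes had 0 rises and 16 falls among 26, but the study chose them on these samples, so that their direction is not independent evidence. Among the falls of LIVER-ID genes were those of Phlda1, Aqp11, the receptor gene Erbb3 (-2.21 ± 0.22) and Zfp750 (-2.17 ± 0.19).

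LIVER-ID transcription factors (LIVER-ID TF) had 4 rises, Atf4 among them, and 17 falls among 38 genes. Onecut1, a hepatic lineage factor, was at 9.38, 7.18, 9.80, 7.99 and 9.54 with vehicle and 6.51, 6.64, 6.18, 5.84 and 5.60 with tunicamycin (-2.62 ± 0.37, adjusted p = 6.74e-06). Its vehicle arrays ranged over more than 2.5, with replicates 2 and 4 low, and still lay above all tunicamycin arrays. Foxa2, a pioneer factor of hepatocytes, was at 7.94, 7.39, 8.0, 7.77 and 7.54 with vehicle and 6.83, 6.57, 6.85, 6.71 and 6.26 with tunicamycin (-1.08 ± 0.14, adjusted p = 1.13e-06), and the groups did not overlap. Hnf4a, the central hepatocyte receptor, was at 10.13, 10.45, 10.30, 10.10 and 9.92 with vehicle and 10.37, 10.51, 10.42, 10.23 and 9.89 with tunicamycin (0.10 ± 0.11, adjusted p = 0.596), with full overlap. Id3, an inhibitor of helix-loop-helix factors, rose (2.20 ± 0.27). In the wider list of hepatocyte transcription factors and coactivators 6 rose and 18 fell among 37.

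Nuclear receptors had 4 rises and 16 falls among 36. Ppara, the fatty acid receptor, was at 9.0, 9.02, 8.97, 8.81 and 8.93 with vehicle and 7.30, 7.47, 7.97, 7.16 and 6.70 with tunicamycin (-1.63 ± 0.16, adjusted p = 2.91e-08). Nr0b2, the bile acid-induced corepressor SHP, was at 7.11, 8.22, 6.97, 7.85 and 7.61 with vehicle and 6.08, 5.35, 6.15, 5.50 and 5.82 with tunicamycin (-1.77 ± 0.22, adjusted p = 8.23e-07). Both groups of arrays stayed apart, with replicate 3 the tunicamycin array nearest to vehicle for both. Nr1i2, which encodes the xenobiotic receptor PXR, fell by a smaller step (-0.60 ± 0.10, adjusted p = 6.87e-05). Nr1h4, which encodes the bile acid receptor FXR, was at 9.84, 9.91, 9.81, 10.07 and 10.16 with vehicle and 9.75, 9.73, 9.71, 9.67 and 9.76 with tunicamycin and did not pass the test (-0.24 ± 0.09, adjusted p = 0.0631), although its arrays did not overlap. The orphan receptor gene Nr4a2 rose (1.24 ± 0.21).

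All 3 PAR-bZIP activators fell. Dbp was at 9.91, 9.85, 9.54, 9.75 and 9.43 with vehicle and 7.51, 8.10, 8.91, 8.0 and 7.07 with tunicamycin (-1.78 ± 0.23, adjusted p = 1.95e-06). Hlf was at 7.32, 7.65, 7.46, 7.05 and 7.23 with vehicle and 5.93, 5.87, 6.51, 6.20 and 6.36 with tunicamycin (-1.17 ± 0.14, adjusted p = 8.76e-07), and Tef at 6.21, 6.24, 6.22, 5.97 and 6.08 with vehicle and 5.55, 5.63, 5.72, 5.79 and 5.38 with tunicamycin (-0.53 ± 0.09, adjusted p = 1.15e-04). No tunicamycin array reached the vehicle range for any of them, and replicate 3 was nearest to it for Dbp and Hlf. Without that array the fall of Dbp was -2.03 ± 0.19, adjusted p = 3.34e-08. Clock genes moved in both directions, with 5 rises and 4 falls among 16. Arntl, which encodes the clock activator BMAL1, was at 4.85, 5.03, 5.73, 5.51 and 5.12 with vehicle and 8.82, 8.36, 7.16, 8.86 and 9.36 with tunicamycin (3.26 ± 0.30, adjusted p = 1.49e-08), with replicate 3 the lowest tunicamycin array by over 1. Per1 rose (1.82 ± 0.24, adjusted p = 2.93e-06), whereas Per3 (-1.57 ± 0.14, adjusted p = 1.08e-08) and the clock-controlled Usp2 (-1.69 ± 0.25, adjusted p = 1.06e-05) fell. Mice of both treatments were sampled 8 h after injection, and the hour of day is not used here.

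Xenobiotic metabolism fell in most of its enzyme families. Carboxylesterases had 0 rises and 13 falls among 19 (median -0.56), with Ces1f (-2.43 ± 0.21) and Ces1b (-2.35 ± 0.19) after Ces1d and Ces1g. Alcohol, aldehyde and flavin oxidation genes had 0 and 25 among 27 (median -0.78), such as Akr1c14 (-1.95 ± 0.17), Akr1d1 (-1.87 ± 0.20) and Adh4 (-1.82 ± 0.16). Conjugating enzymes had 1 and 26 among 45, with the methyltransferase gene Inmt (-1.73 ± 0.27) and the glucuronosyltransferase gene Ugt2b36 (-1.40 ± 0.17). Phase I P450 genes had 2 rises, Cyp2b10 and Cyp2a22 (1.44 ± 0.20), and 22 falls among 42, with Cyp3a25 the largest fall (-2.54 ± 0.42). Probes of the Cyp2, Cyp3a and Ugt2b families can be shared between relatives.

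The study singled out 5 detoxifying genes from its Core Enrichment genes. It described these as less repressed by ERS in NFIL3 KO than in WT livers, from a ranking of these same samples under ERS. The size of their differences here is therefore not independent evidence. The limma interaction of genotype and treatment was called for none of the 5. Gsta3 differed by -1.36 in WT livers (interaction 0.81 ± 0.19, adjusted p = 0.494) and Adh1 by -0.62 (interaction 0.07 ± 0.16, adjusted p = 0.9998). Adh1, an alcohol dehydrogenase, was at 7.96, 7.74, 8.38, 8.15 and 7.93 with vehicle and 7.44, 7.45, 7.49, 7.64 and 7.41 with tunicamycin (-0.54 ± 0.11, adjusted p = 5.60e-04). Gsta3, a glutathione transferase, was at 10.97, 10.91, 10.98, 10.93 and 10.90 with vehicle and 10.23, 10.58, 10.32, 10.65 and 10.18 with tunicamycin (-0.55 ± 0.13, adjusted p = 0.0025). Both fell with no overlap of arrays. Fmo5, a flavin monooxygenase, was at 11.24, 11.56, 11.48, 11.23 and 10.99 with vehicle and 10.66, 10.80, 11.26, 10.65 and 10.43 with tunicamycin (-0.54 ± 0.14, adjusted p = 0.00558), with replicate 3 the only tunicamycin array in the vehicle range, and the fall without it was -0.66. Ugt2b1, a glucuronosyltransferase, was at 12.14, 12.30, 12.28, 12.30 and 12.23 with vehicle and 11.74, 12.18, 11.65, 11.94 and 11.76 with tunicamycin (-0.39 ± 0.13, adjusted p = 0.0294, but -0.34, adjusted p = 0.0731 without replicate 3). Cyp3a11, a major drug-metabolizing P450, was at 11.36, 11.42, 11.16, 11.33 and 11.27 with vehicle and 11.11, 11.33, 10.96, 10.96 and 11.02 with tunicamycin (-0.23 ± 0.13, adjusted p = 0.235), and did not pass.

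Bile acid and anion transporters fell, with 3 rises and 18 falls among 28 (median -0.81). Abcg5 (-2.44 ± 0.18) and Abcg8 (-2.34 ± 0.15), which together form the sterol exporter, were among them, with Slc22a30 (-2.61 ± 0.30) and Slc10a5 (-1.71 ± 0.11). Cyp7a1, which sets the rate of bile acid synthesis, was at 10.32, 9.88, 11.14, 10.67 and 10.90 with vehicle and 9.27, 7.62, 10.49, 9.50 and 7.87 with tunicamycin (-1.63 ± 0.50, adjusted p = 0.0152). Its tunicamycin arrays spread over almost 3, with replicate 3 the highest, and the call was lost without tunicamycin replicate 2 (-1.30, adjusted p = 0.0579) or 5 (-1.36, adjusted p = 0.0559). Acnat2, an acyltransferase of the bile acid list, rose (1.23 ± 0.25), and Amacr, of bile acid side chain oxidation, fell (-1.28 ± 0.14).

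Fatty acid oxidation and ketogenesis had 3 rises and 31 falls among 43 genes (median -0.59), with the ketone body gene Bdh1 at -1.86 ± 0.15. Against that direction the mitochondrial thioesterase gene Acot2 rose 9.77-fold, from 8.68, 7.65, 7.46, 7.27 and 7.84 to 11.21, 10.58, 11.57, 11.02 and 10.97 (3.29 ± 0.26, adjusted p = 1.67e-09). Acsl4, which activates arachidonic acid, rose as well (1.70 ± 0.09). De novo lipogenesis had 2 rises and 12 falls among 22, with Acacb (-1.90 ± 0.24), Fads2 (-1.59 ± 0.18) and Fasn (-1.35 ± 0.22) lower. Lipin and acyltransferase genes of triglyceride synthesis went both ways, Lpin3 (2.19 ± 0.13) and Gpat3 (1.59 ± 0.13) up and Gpam (-1.91 ± 0.15) and Lpin2 (-1.35 ± 0.22) down. Cholesterol synthesis had 5 rises and 11 falls among 22, with Mvd up (1.93 ± 0.17) and Dhcr7 down (-1.76 ± 0.18). Apolipoproteins, lipoprotein receptors and lipases had 1 and 18 among 27, with Lrp1 (-2.45 ± 0.18) and Apon (-2.10 ± 0.17).

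Amino acid breakdown had 3 rises and 33 falls among 45 genes, with the histidine lyase gene Hal at -2.42 ± 0.18 and the glycine cleavage gene Gldc at -1.83 ± 0.16, whereas the transaminase gene Got1 rose (1.84 ± 0.15). The urea cycle list had 0 and 7 among 13, with Arg1 (-1.24 ± 0.14) and Asl (-0.98 ± 0.12) lower. Gluconeogenesis and glycogen genes had 4 and 16 among 29, and glycogen synthase Gys2 fell (-1.61 ± 0.17). Pck1, the gate of gluconeogenesis, was at 12.10, 12.38, 12, 12.13 and 12.32 with vehicle and 10.30, 11.07, 11.76, 9.03 and 9.53 with tunicamycin (-1.85 ± 0.38, adjusted p = 4.87e-04), with replicate 3 the highest tunicamycin array, and without it the fall was -2.21 ± 0.34, adjusted p = 2.22e-05. Subunits of the respiratory chain mostly fell by small steps, 52 of 63 with 1 rise (median -0.39). Their list means of 8.58 to 8.75 with vehicle and 8.17 to 8.33 with tunicamycin did not overlap. Atp5k (-1.18 ± 0.12) and Sdhd (-1.07 ± 0.09) fell most among them.

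Genes of coagulation, complement and the growth hormone axis fell more often than they rose. Coagulation and complement genes had 1 rise and 31 falls among 40 (median -0.49), among them C4b (-1.44 ± 0.19), C1s1 (-1.35 ± 0.17), coagulation factor gene F7 (-1.31 ± 0.10) and Proz (-1.27 ± 0.11). The growth hormone and IGF axis had 2 rises and 12 falls among 21. Igfals, the carrier of IGF1 in serum, was at 7.96, 7.89, 8.28, 7.70 and 7.63 with vehicle and 5.11, 5.56, 5.57, 5.44 and 5.54 with tunicamycin (-2.45 ± 0.13, adjusted p = 4.77e-12), and the growth hormone receptor gene Ghr at 9.55, 9.32, 9.57, 9.58 and 9.12 with vehicle and 8.07, 7.96, 7.69, 7.82 and 8.03 with tunicamycin (-1.51 ± 0.12, adjusted p = 2.07e-09). Both were fully apart between treatments. Stress hepatokines and angiopoietin-like proteins had 7 rises and 7 falls among 22 (median 0.21). Angptl8, a regulator of lipoprotein lipase, fell (-1.39 ± 0.49, adjusted p = 0.0389, but -1.08, adjusted p = 0.121 without replicate 3). Fgf21 was at 5.83, 6.12, 5.36, 5.44 and 8.31 with vehicle and 7.74, 7.39, 7.82, 8.14 and 8.56 with tunicamycin (1.72 ± 0.40, adjusted p = 0.002, or 2.24, adjusted p = 1.11e-06 without vehicle replicate 5). Igfbp1 was at 7.24, 8.03, 7.90, 8.56 and 9.69 with vehicle and 9.63, 11.26, 11.29, 10.30 and 8.85 with tunicamycin (1.98 ± 0.48, adjusted p = 0.0027, or 2.33, adjusted p = 5.13e-04 without vehicle replicate 5). Vehicle replicate 5 was the highest of its group for both and overlapped the tunicamycin arrays. Hepatocyte secreted and carrier proteins other than these had 0 rises and 10 falls among 21, and their median went from -0.17 to 0.03 under cyclic loess normalization, so no direction is given for that list.

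Acute-phase genes gave no common direction. Acute-phase proteins had 6 rises and 4 falls among 23. Saa2 was at 11.30, 8.85, 11.44, 10.67 and 12.80 with vehicle and 11.31, 9.90, 7.05, 9.65 and 11.27 with tunicamycin (-1.18 ± 0.90, adjusted p = 0.409), and Lcn2, an iron-binding acute-phase protein, at 8.19, 6.90, 8.60, 7.78 and 10.60 with vehicle and 10.16, 10.12, 7.65, 8.89 and 8.78 with tunicamycin (0.70 ± 0.67, adjusted p = 0.528). Vehicle replicate 5 was the highest vehicle array and tunicamycin replicate 3 the lowest or next to lowest of all 10 for these genes. Without tunicamycin replicate 3 the difference was -0.48 for Saa2 and 1.07 for Lcn2, and without vehicle replicate 5 it was -0.73 and 1.25. With any 1 of the 10 arrays left out, Saa2 ranged from -1.72 to -0.48 and Lcn2 from 0.33 to 1.25, and neither passed the test. Saa3 differed by -0.09 ± 1.04 with all arrays and by 0.96 without vehicle replicate 5. Mt2 rose (2.93 ± 0.57, adjusted p = 2.82e-04, or 3.44, adjusted p = 2.08e-05 without vehicle replicate 5), with tunicamycin arrays of 12.65, 12.73, 12.42, 12.35 and 11.61. The zinc transporter genes of the secretory pathway Slc30a5 (1.65 ± 0.12) and Slc30a7 (1.30 ± 0.09) rose too. Interferon-stimulated genes fell, with 0 rises and 19 falls among 31 (median -0.58). Their list mean was 6.47 to 6.87 with vehicle and 5.66 to 6.14 with tunicamycin, lowest in replicate 3 at 5.66. Iigp1 (-2.14 ± 0.21), Igtp (-1.75 ± 0.21) and Irgm2 (-1.40 ± 0.18), GTPases of defence against intracellular pathogens, and Oasl1 (-1.54 ± 0.15) fell most.

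Other lists of proteostasis and stress held both rises and falls. Over all genes 13.5% rose and 13.7% fell, and of 5090 genes with a mean signal of 6 to 8, 1523 rose and 1244 fell. The counts below are therefore not read as a result about these lists. The cytosolic heat shock list had 7 rises and 6 falls among 33, with Bag3 up (1.25 ± 0.12) and Hspa1b down (-0.93 ± 0.21). Mitochondrial chaperones and proteases had 8 and 3 among 23, with Clpx at 1.51 ± 0.16 and Lonp1 at 0.64 ± 0.10. Proteasome subunits had 4 and 14 among 46, and the immunoproteasome gene Psmb10 fell (-1.21 ± 0.16). Autophagy genes had 9 and 12 among 44, with the receptor gene Sqstm1 up (1.33 ± 0.10) and the kinase gene Ulk1 down (-1.0 ± 0.12). NRF2 targets had 4 and 8 among 21, with Srxn1 up (1.27 ± 0.20) and Abcc3 down (-1.11 ± 0.17).

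Markers of the other cells of the liver mostly did not pass the test, and neither did most genes. Over all genes 13.5% rose and 13.7% fell, so the counts below are not read as a result about these cells. Kupffer cell and macrophage markers had 1 rise, of Cd14 (1.15 ± 0.25), and 2 falls among 19, and Clec4f, which marks Kupffer cells, differed by -0.33 ± 0.16 (adjusted p = 0.137). The list mean was 6.99 to 7.21 with vehicle and 6.68 to 7.31 with tunicamycin. Sinusoidal endothelial markers had 4 falls among 18, none past 0.4, with means of 7.80 to 7.91 and 7.68 to 7.86. Stellate cell markers had 2 falls among 16 (6.33 to 6.54 and 6.26 to 6.47), and cholangiocyte markers 1 among 10 (4.63 to 4.84 and 4.46 to 4.60). In the lists of T, NK and ILC, B and plasma, neutrophil and dendritic cells, 4 genes fell and the others were not called. Neutrophil and B cell signals sat near the low end of the array, with S100a8 at 2.68 to 3.58 with vehicle and 2.52 to 4.19 with tunicamycin and Ms4a1 at 3.65 to 4.16 and 3.59 to 4.09. An array signal has no true zero, so the absence of these cells cannot be read from it. Hepatocyte markers had 1 rise, of Tat (0.39 ± 0.09), and 4 falls among 11, such as Apoa1 (-0.36 ± 0.08) and Ttr (-0.27 ± 0.07), and their median turned from -0.15 to 0.07 under cyclic loess.

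Periportal hepatocyte markers had 1 rise and 8 falls among 12, and pericentral markers 1 and 9 among 17, such as Glul (-1.37 ± 0.20) and Lgr5 (-0.81 ± 0.10). Genes known to be higher in male liver had 1 rise and 10 falls among 17 (median -0.44), led by Hsd3b5 (-2.11 ± 0.23). Genes known to be higher in female liver had 0 rises and 3 falls among 17 (median -0.36), from a low vehicle mean of 4.84. Iron handling genes had 6 rises and 12 falls among 21, with the exporter gene Slc40a1 at -1.09 ± 0.13.

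The weight of tunicamycin replicate 3 was examined by leaving out each of the 10 arrays in turn. Without it 6413 genes were called (28.9%), of which 3227 rose (14.5%) and 3186 fell (14.4%), so that the comparison of 4 mice against 5 called more genes than that of 5 against 5. Leaving out any other array left 5500 to 5698 genes. Of the 6029 calls, 5724 (94.94%) were also made without replicate 3, 305 were not, 689 genes were added, and no called gene turned its sign. The median SD over genes in the tunicamycin group was 0.196 with the array and 0.163 without it, beside 0.171 in the vehicle group. A fit that weights arrays by their residual spread gave it a weight of 0.397, against 0.889 to 1.351 for the other 9.

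**Figure D3:**
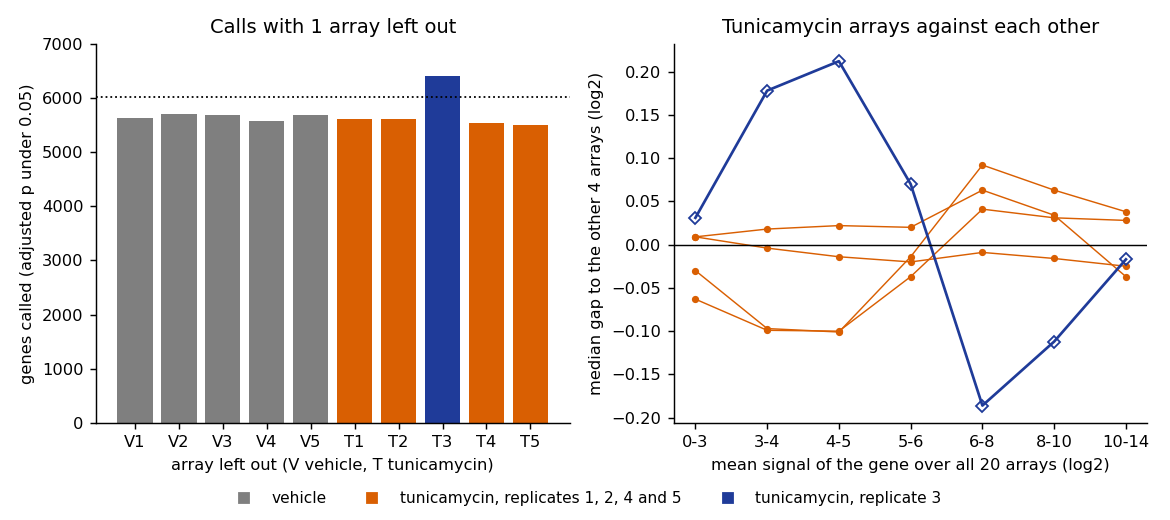
Genes called (count) when each of the 10 NFIL3 KO arrays was left out in turn, and the median gap (log2) of each tunicamycin array to the mean of the other 4 across bins of gene level. Without replicate 3 the count is 6413, above the 6029 of all arrays and the 5500 to 5698 of the other omissions; its gap is 0.21 for genes of level 4 to 5 and -0.19 for genes of level 6 to 8.

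Replicate 3 differed from the rest of its group in kind as well as in size. Genes that rose or fell in WT livers were called by the WT difference, but with a variance from the fit to all arrays, replicate 3 included. These sets are therefore not fully independent of that array. Over genes that rose in WT livers, the median difference of replicate 3 from the NFIL3 KO vehicle mean was 0.41. The other 4 arrays lay between 0.62 and 0.69. Over genes that fell in WT livers the value of replicate 3 was -0.52, within the -0.48 to -0.6 of the others. The gap of the array to its group also moved with signal level, from 0.21 for genes of level 4 to 5 to -0.19 for genes of level 6 to 8. At least 1 log2 unit from the mean of the other 4 lay 176 genes, 56 above and 120 below, against 41 to 103 for each of the other 9 arrays. RNA quality and the hour of sampling are not known for this array, and their part was not tested.

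**Figure D4:**
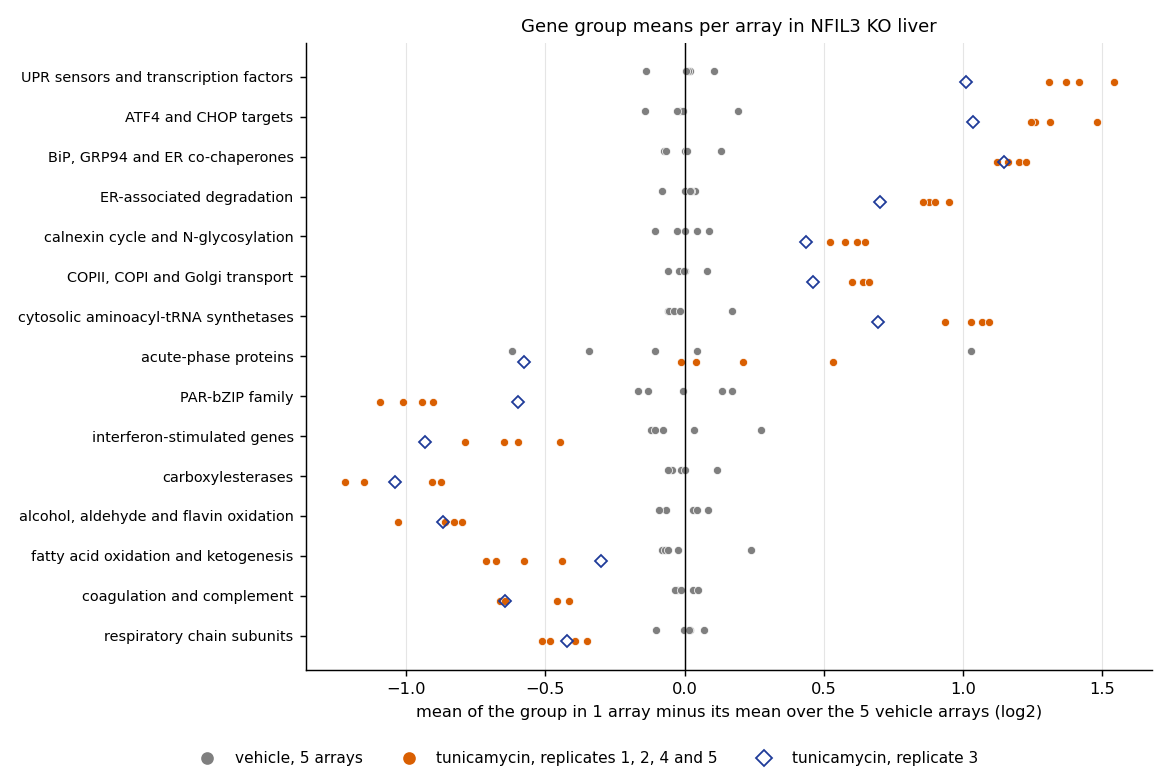
Mean of each of 15 gene lists in each of the 10 arrays, as the difference (log2) from the mean of the 5 vehicle arrays, with replicate 3 of the tunicamycin group as an open diamond. Replicate 3 is the lowest tunicamycin array for the UPR sensors (mean signal 8.42 against 8.72 to 8.95) and the highest, nearest to vehicle, for fatty acid oxidation and ketogenesis (8.89 against 8.47 to 8.74).

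Most ER lists were lower in replicate 3 than in the rest of the group and far above vehicle. For UPR sensors and transcription factors it was at 8.42 against 8.72 to 8.95 in the other 4 and 7.27 to 7.51 with vehicle, and for ER-associated degradation at 8.98 against 9.13 to 9.22 and 8.19 to 8.31. For aminoacyl-tRNA synthetases of the cytosol it was at 8.70 against 8.94 to 9.10. The BiP and GRP94 list was the exception, at 9.43 within 9.40 to 9.51. A lower mean in replicate 3 was not particular to ER lists. Housekeeping genes were at 9.18 against 9.32 to 9.36 in the other 4, and proteasome subunits at 7.84 against 7.96 to 8.02. Over all genes of level 6 to 8 the median gap of replicate 3 was -0.19. A weaker response to ERS in this mouse cannot be told apart from this wider shift. Among falling lists, the PAR-bZIP family (6.55 against 6.05 to 6.24) and fatty acid oxidation (8.89 against 8.47 to 8.74) were higher in replicate 3, nearer to vehicle, whereas the LIVER-ID genes (8.38 within 8.25 to 8.43) and conjugating enzymes (7.90 within 7.83 to 8.11) were not apart.

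The genes farthest below the rest of the group in replicate 3 were Saa2, Moxd1, Atf3, Orm2, Snai2, Cep126, Lcn2 and Rcan1, and those farthest above were Rgs16, Cyp4a14, Cyp7a1, Gstt2, Hsd17b6, Lepr, Pck1 and Hykk. They were chosen by the gap itself, which is therefore a description. Snai2, a repressor of epithelial genes, was at 6.65, 7.07, 7.04, 6.94 and 6.95 with vehicle and 8.27, 8.86, 6.69, 9.10 and 8.36 with tunicamycin, and replicate 3 lay in the vehicle range while the other 4 were over 1 above it (with it 1.32 ± 0.30, without it 1.72 ± 0.19, adjusted p = 3.81e-07). Cep126, a centrosomal gene, was at 3.0, 3.25, 2.95, 3.46 and 3.04 with vehicle and 5.19, 4.44, 2.99, 4.66 and 5.05 with tunicamycin, again with replicate 3 among the vehicle arrays (1.33 ± 0.27, without it 1.69). Rcan1, a calcineurin inhibitor, stood at 10.08, 10.13, 8.59, 10.87 and 10.30 with tunicamycin (2.06 ± 0.31). Rgs16, a regulator of G protein signalling, was at 9.48, 10.50, 6.89, 8.09 and 8.51 with vehicle and 6.22, 5.99, 8.31, 5.34 and 5.39 with tunicamycin (-2.44 ± 0.57, adjusted p = 0.00196, without replicate 3 -2.96, adjusted p = 1.30e-04). Gstt2, a glutathione transferase, was at 7.76, 7.09, 7.14, 7.54 and 7.76 with vehicle and 6.29, 5.91, 7.59, 5.03 and 5.57 with tunicamycin (-1.38 ± 0.30, without it -1.76), and Hykk, a hydroxylysine kinase gene, at 10.14, 9.87, 10, 10.09 and 10.30 with vehicle and 8.27, 7.73, 9.35, 6.95 and 7.57 with tunicamycin (-2.10 ± 0.29, without it -2.45). In both, replicate 3 was the tunicamycin array nearest to vehicle, inside the vehicle range for Gstt2 and below every vehicle array for Hykk. Hsd17b6 was at 8.55, 7.73, 9.67, 5.97 and 8.93 with tunicamycin and 9.85 to 10.77 with vehicle (-2.08 ± 0.45). Lepr, the leptin receptor gene, was at 6.49, 5.74, 4.95, 5.63 and 6.37 with vehicle and 7.14, 7.27, 8.51, 5.63 and 6.66 with tunicamycin and did not pass (1.20 ± 0.47, adjusted p = 0.0606), nor did Cyp4a14, a PPARα target, at 9.82, 5.87, 7.17, 5.87 and 5.75 with vehicle and 5.23, 5.91, 6.89, 3.58 and 3.94 with tunicamycin (-1.78 ± 0.81, adjusted p = 0.119). Moxd1 had arrays from 3.44 to 9.37 with vehicle and 3.70 to 8.28 with tunicamycin, and Orm2 from 7.60 to 10.98 and 5.68 to 8.71, with no call for either (adjusted p = 0.977 and adjusted p = 0.111).

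**Figure D5:**
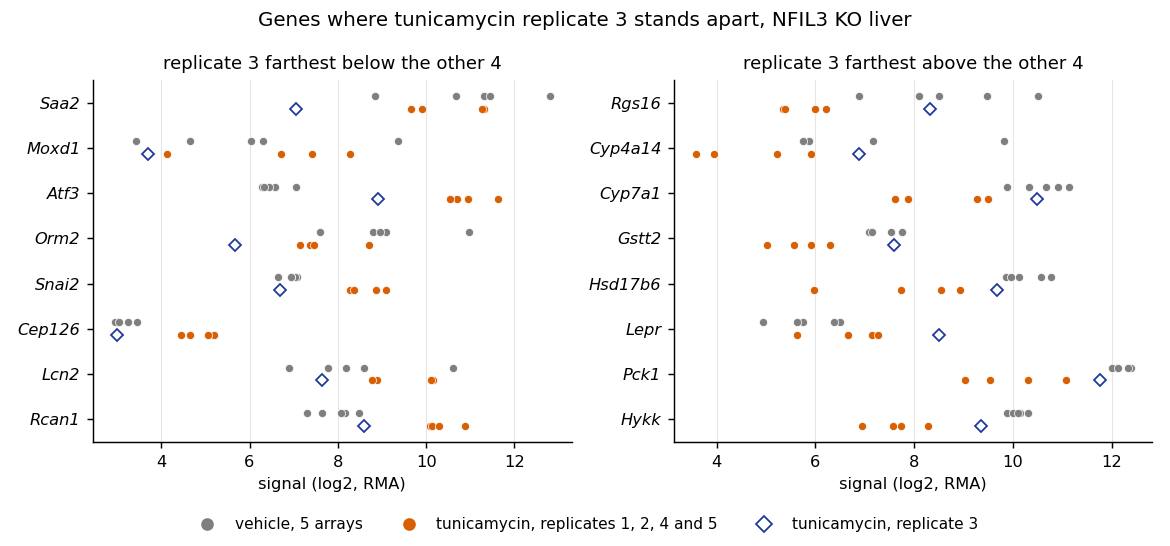
Log2 signal in each array for the 8 genes in which tunicamycin replicate 3 (open diamond) lay farthest below the other 4 tunicamycin arrays and the 8 in which it lay farthest above. For Snai2 it is at 6.69 against 8.27 to 9.10, and for Rgs16 at 8.31 against 5.34 to 6.22.

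Finally the response of NFIL3 KO livers was set against that of WT livers by the interaction of genotype and treatment. It was called for 2 of 22180 genes (0.00902%). An unadjusted p under 0.05 was found for 1019 genes, a share of all genes below the 0.05 that chance alone would give. Without replicate 3 the interaction was called for 3 genes. Auh, which encodes an RNA-binding enoyl-CoA hydratase of leucine breakdown, was at 7.11, 7.0, 7.04, 7.18 and 7.08 with vehicle and 8.20, 8.31, 7.57, 8.34 and 8.38 with tunicamycin in NFIL3 KO livers (1.08 ± 0.14, adjusted p = 1.81e-06), all tunicamycin arrays above all vehicle arrays and replicate 3 the lowest of them. In WT livers its mean went from 6.45 to 5.97, and the interaction was 1.56 ± 0.20 (adjusted p = 0.00167). Auh is the protein-coding gene next to Nfil3 in the order of RefSeq genes on chromosome 13, and it is not known here if its probes fall inside the deletion. The other measured genes among the 5 nearest on each side of Nfil3, from Sema4d to Drd1, each had an interaction with an adjusted p of 0.9998. Adra1b, an α1-adrenergic receptor gene of hepatocytes, was at 8.16, 8.02, 8.47, 8.19 and 7.87 with vehicle and 7.85, 8.15, 7.64, 8.14 and 7.99 with tunicamycin in NFIL3 KO livers and did not pass there (-0.19 ± 0.12, adjusted p = 0.276), whereas in WT livers the difference was -1.25, and the interaction was 1.06 ± 0.16 (adjusted p = 0.0171). Nfil3 itself had an interaction of -1.72 ± 0.33 that did not pass (adjusted p = 0.218). For the remaining genes no difference between the genotypes in the response was detected with all arrays at this number of mice.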

How the data were processed

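Whole liver RNA of 20 mice was measured on a whole-transcript mouse gene array, 1 array per mouse and 5 mice per group. According to the submitters' processing notes and the methods, the authors made the deposited log2 values in Partek by RMA, with background correction, quantile normalization and median polish. These values, from 0.515 to 13.7, were used as deposited. Of 41345 probesets, 23521 carry 1 gene symbol, 1820 several and 16004 none, and 23328 of those with 1 symbol were matched to RefSeq (GRCm38.p6). Values of probesets that share a symbol were averaged, which gave 22180 genes (1082 with more than 1 probeset). Groups came from the sample labels. The labels give no batch, litter or day, and no array scan date was used, so none was modelled. No array was left out of the main fit.

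Group means were fitted to all 20 arrays with limma 3.58.1 (R 4.3.3; lmFit and eBayes, 16 residual degrees of freedom among arrays), with two-sided contrasts and Benjamini-Hochberg adjustment over all genes at 0.05. The script was tested on simulated data. Tables and figures were made with Python 3.11.15, pandas 2.3.3 and matplotlib 3.10.9. With 5 arrays a group, their number sets the precision of all values.

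The comparison, the naming rule and the 72 gene lists written from general knowledge were chosen with earlier results of these data known. From the study came 6 more lists, of which LIVER-ID, LIVER-ID TF, UBQ and Core Enrichment are given and the other two are not reported here. Lists are described by counts and medians, with no test. Named were genes of prior interest (Nfil3, the PAR-bZIP family, UPR genes, hepatocyte regulators and 5 detoxifying genes), the 12 largest rises and 12 largest falls among called genes whose arrays did not overlap, leaving out predicted genes, pseudogenes and small RNAs, up to 4 members of each list by size of change, 8 genes on each side of replicate 3, 8 genes by vehicle SD and called interactions; 289 genes in all. The 5 detoxifying genes had been chosen by the study on these same samples. Other names were chosen after their values were seen. Alternatives were the 10 arrays alone, a replicate block, each array left out, array weights, cyclic loess, median centring, a mean level of at least 5, eBayes with trend and robust settings, the brightest probeset of a gene and a 1.5-fold minimum. Replicate numbers do not pair the mice. Correlations of deviations between same-numbered arrays ran from -0.137 to 0.041.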

Additional observations from a re-analysis of the deposited data

Results flagged for a closer look

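In groups of 5 arrays, the highest or lowest array was marked where its gap to the nearest of the others took up more than 0.71 of the range of the group. This marked 37 of 578 checks of named genes and 10 of 156 checks of list means, and chance marks about 1 in 20. Vehicle replicate 5 held 12 of the marks of named genes, tunicamycin replicate 3 held 8, tunicamycin replicate 4 held 5 and tunicamycin replicate 2 held 4. Explanations were not tested.

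In NFIL3 KO vehicle replicate 2, Per3 was at 7.03, below the 7.29 to 7.39 of the other 4 arrays. In NFIL3 KO vehicle replicate 3, Cpn2 was at 10.07, above the 9.73 to 9.80 of the other 4 arrays. Serpinb9 was at 5.44 against 5.84 to 5.93. Ugt2b5 was at 10.57 against 10.83 to 10.94. In NFIL3 KO vehicle replicate 4, Cox6b1 was at 9.65, above the 9.26 to 9.33 of the other 4 arrays. In NFIL3 KO vehicle replicate 5, Aldh18a1 was at 5.30, above the 4.22 to 4.53 of the other 4 arrays. Bdh2 was at 6.81 against 7.17 to 7.29. Cd14 was at 5.87 against 4.58 to 4.88. Fgf21 was at 8.31 against 5.36 to 6.12. Gars was at 8.69 against 8.21 to 8.32. Mthfd2 was at 6.32 against 4.54 to 4.68. Nsdhl was at 10.20 against 9.58 to 9.67. Nucb2 was at 7.84 against 7.11 to 7.25. Pdia6 was at 11.08 against 10.62 to 10.73. Psmb10 was at 9.15 against 8.28 to 8.37. Saa3 was at 12.45 against 6.76 to 7.65. Srprb was at 7.78 against 7.38 to 7.48. In NFIL3 KO tunicamycin replicate 2, Cd79b was at 4.14, below the 4.75 to 4.93 of the other 4 arrays. Pfkfb3 was at 5.69 against 4.91 to 5.0. Phlda1 was at 6.92 against 5.52 to 5.87. Psme1 was at 9.23 against 9.01 to 9.06. In NFIL3 KO tunicamycin replicate 3, Auh was at 7.57, below the 8.20 to 8.38 of the other 4 arrays. Chka was at 5.90 against 6.81 to 6.97. Gfpt1 was at 10.26 against 10.62 to 10.69. Mthfd2 was at 6.21 against 7.01 to 7.09. Nsdhl was at 8.15 against 8.60 to 8.71. Psme3 was at 7.71 against 8.08 to 8.23. Slc22a30 was at 3.42 against 5.0 to 5.37. Tbp was at 7.14 against 7.54 to 7.67. In NFIL3 KO tunicamycin replicate 4, Apof was at 9.62, below the 10.08 to 10.19 of the other 4 arrays. Cxcl13 was at 7.29 against 9.35 to 9.96. Ears2 was at 7.38 against 7.05 to 7.13. Herpud1 was at 12.78 against 12.50 to 12.57. Stab2 was at 7.82 against 7.97 to 8.01. In NFIL3 KO tunicamycin replicate 5, Abcg5 was at 5.88, below the 6.59 to 6.75 of the other 4 arrays. Myc was at 7.96 against 8.73 to 8.88. Proz was at 9.33 against 9.80 to 9.96.

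The ER translocation and signal peptide processing list had a mean of 8.11 in vehicle replicate 5, above the 8.02 to 8.03 of the other 4. The cytosolic aminoacyl-tRNA synthetases list had a mean of 8.17 in vehicle replicate 5, above the 7.94 to 7.99 of the other 4. The serine, one-carbon and amino acid synthesis list had a mean of 7.72 in vehicle replicate 5, above the 7.51 to 7.57 of the other 4. The hepatocyte transcription factors and coactivators list had a mean of 7.28 in tunicamycin replicate 5, below the 7.52 to 7.62 of the other 4. The fatty acid oxidation and ketogenesis list had a mean of 9.42 in vehicle replicate 1, above the 9.10 to 9.16 of the other 4. The alpha-1 antitrypsin and related serpins list had a mean of 8.43 in vehicle replicate 2, below the 8.60 to 8.65 of the other 4. The NF-kB targets and chemokines list had a mean of 7.08 in tunicamycin replicate 2, above the 5.79 to 5.95 of the other 4. The cytosolic heat shock response list had a mean of 7.21 in tunicamycin replicate 3, below the 7.37 to 7.41 of the other 4. The housekeeping genes list had a mean of 9.18 in tunicamycin replicate 3, below the 9.32 to 9.36 of the other 4. The T, NK and ILC markers had a mean of 4.46 in vehicle replicate 2, above the 4.26 to 4.30 of the other 4.

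Auh was marked for a difference between genotypes, with a response in NFIL3 KO livers that exceeded that in WT livers by 1.56 ± 0.20 (limma interaction, adjusted p = 0.00167 over all genes). It rose in NFIL3 KO livers and fell in WT livers. It is not known here if its probes fall inside the Nfil3 deletion.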

How the results depend on the processing

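The 6029 calls (2984 rises and 3045 falls) stayed within 1.5 times that count in every alternative but the added fold minimum. With at least a 1.5-fold change as well there were 2972 (1582 rises and 1390 falls). Leaving out 1 array at a time gave 5500 to 6413 calls, 2722 to 3227 rises and 2720 to 3186 falls. A replicate block gave 5052 (2533 and 2519), although the numbers do not pair the mice, and the 10 arrays alone gave 5643. Array weights gave 3298 rises and 3333 falls, and cyclic loess 3107 and 3018. Median centring gave 3143 and 2558, a share of rises of 55.13% against 49.49%. Among probesets, 8361 calls became 9073 without tunicamycin replicate 3.

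Of 289 named genes, 280 to 286 kept direction and call under each omission, as did 285 under cyclic loess. Signs turned for 4 genes that were not called (each given with its lowest and highest value when 1 array was left out). Saa3 ranged from -0.46 to 0.96; it was 0.96 without vehicle replicate 5, 0.10 and 0.17 without tunicamycin replicates 2 and 3 and 0.24 with array weights. Cxcl9 ranged from -0.46 to 0.41; it was 0.41 without vehicle replicate 5 and 0.06 with array weights. Moxd1 ranged from -0.54 to 0.94; it was -0.54 and -0.24 without vehicle replicates 1 and 3 and -0.47, -0.08 and -0.25 without tunicamycin replicates 1, 2 and 4. Xbp1 ranged from -0.15 to 0.01, the latter without tunicamycin replicate 3. Calls lost without 1 array included Myc without tunicamycin replicate 3 (1.22, adjusted p = 0.052), Hmox1 without replicate 2 (0.62, adjusted p = 0.051) and Angptl8 without replicate 3 (-1.08, adjusted p = 0.121). Of 78 list medians, 14 moved by more than the replicate spread with a minimum mean level of 5, and 6 with cyclic loess. The minimum level leaves out list members below it, so those medians are taken over fewer genes. The cause under cyclic loess was not tested.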
